A study of Bos taurus with 15 samples.

Results

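Mitochondria make most of a cell's ATP by passing electrons along respiratory complexes in their inner membrane and by letting the resulting proton gradient turn ATP synthase. The genes described here are the nuclear genes of complexes II to V: succinate dehydrogenase (complex II), the cytochrome bc1 complex (III), cytochrome c oxidase (IV) and ATP synthase (V), with the assembly factors whose symbols share their stems. They were chosen by gene symbol (SDHA to SDHD with their assembly factors, symbols that open with UQC, COX or COA and a digit, or ATP5, and CYC1, CYCS and LYRM7), and genes on the mitochondrial genome were left out. The rule found 52 of the 24616 genes in the table. SDHD and CYCS were not among them, and 16 rows without a symbol that are described as subunits of these complexes lie outside the rule.

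Complex II takes electrons from succinate and complex III hands electrons from ubiquinol to cytochrome c. Complex IV reduces oxygen and complex V makes ATP. Complex II is made wholly of nuclear-encoded subunits, whereas complexes III, IV and V also need subunits made inside the mitochondrion, and dedicated assembly factors insert copper, haem and iron-sulfur centres. A growing oocyte stores mitochondria and mRNA for the first divisions of the embryo, and oxidative phosphorylation is its main source of ATP.

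The study measured the mRNA of cow (Bos taurus) oocytes by RNA sequencing to ask how the temperature of vitrification and the concentration of cryoprotectant affect it. Vitrification is cooling so fast in concentrated cryoprotectant that water sets as glass without ice crystals. There were 5 groups of 3 libraries: oocytes vitrified in liquid helium with cryoprotective agent at 5.6 M, in liquid helium at 6.6 M, in liquid nitrogen at 5.6 M and in liquid nitrogen at 6.6 M, and fresh oocytes. The series title calls the oocytes immature, but the sample labels give in vitro maturation for 22 to 24 h at 38.5 °C for all groups, with cumulus cells stripped by hyaluronidase afterwards. Extraction is described as from single cells. The labels do not give the number of oocytes in a library, the composition of the cryoprotectant, the hold time or whether replicates came from different cows, so a p-value here covers how far these libraries vary, and part or all of that may be technical.

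Depth went almost wholly with the coolant. The 6 helium libraries held 6346848 to 8569618 counts and nitrogen 6.6 M library 3 held 7392972. The other 5 nitrogen libraries held 1790900 to 2613014 counts and the 3 fresh libraries 1601519 to 2822837. Depth and coolant therefore cannot be told apart except through that 1 nitrogen library, and no library of high depth was fresh. Oocyte markers such as GDF9, ZP2 and BMP15 were detected in all 15 libraries, with a summed level of 4167 to 8561 CPM (counts relative to the library total) over the 12 listed in the table. Of 18 cumulus and granulosa markers in the table, FSHR and FOXL2 had 0 counts in all libraries. Their summed level was 364 to 535 CPM in 14 libraries, most of it from STAR, HAS2 and PTGS2, and 652 CPM in helium 6.6 M library 2. That library also had the highest TIMP1, TNFAIP6 and VIM, at 130, 30.8 and 16.8 CPM. HAS2 was at its lowest of 15 libraries there, at 83.5 CPM, and STAR and PTGS2 were higher in other libraries. Helium 6.6 M library 2 was the highest of 15 libraries in 14 of the 44 tested respiratory genes. Of all tested genes, 10.7% had their highest value there. Fresh library 1 was the lowest of 15 in 10 of the 44, fresh library 2 in 8 and fresh library 3 in 6. Of all tested genes, 14.5%, 12.8% and 9.88% had their lowest value in these libraries.

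Levels between genes are compared per length, as FPKM (fragments per kilobase of gene model, scaled by the library total), averaged over the 15 libraries. The respiratory genes spanned a wide range. Of the 52, 48 averaged at least 1 FPKM, 34 at least 10 and 12 at least 100, with a median of 19.3. ATP5J, which encodes coupling factor 6 in the peripheral stalk of ATP synthase, was the highest at 1690 ± 361 FPKM (SD, n = 15). COX7A2L, which encodes a COX7A-related protein that joins complexes III and IV into supercomplexes, followed at 1300 ± 156 FPKM. ATP5G3, 1 of several genes for the proton-carrying subunit c, averaged 587 ± 67.8 FPKM. ATP5J (ENSBTAG00000000605) spans 10069680 to 10076995 on chromosome 1 of UMD3.1, COX7A2L 24824245 to 24836596 on chromosome 11 and ATP5G3 21702150 to 21705260 on chromosome 2. The 52 genes together took 0.473% ± 0.0112 of all counts in helium 5.6 M, 0.514% ± 0.0611 in helium 6.6 M, 0.513% ± 0.0135 in nitrogen 5.6 M, 0.533% ± 0.0357 in nitrogen 6.6 M and 0.487% ± 0.0155 in fresh oocytes (SD, n = 3 each). The helium 5.6 M libraries lay below those of both nitrogen groups, the other groups overlapped, and the highest single share, 0.578%, was that of helium 6.6 M library 2.

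**Figure D1:**
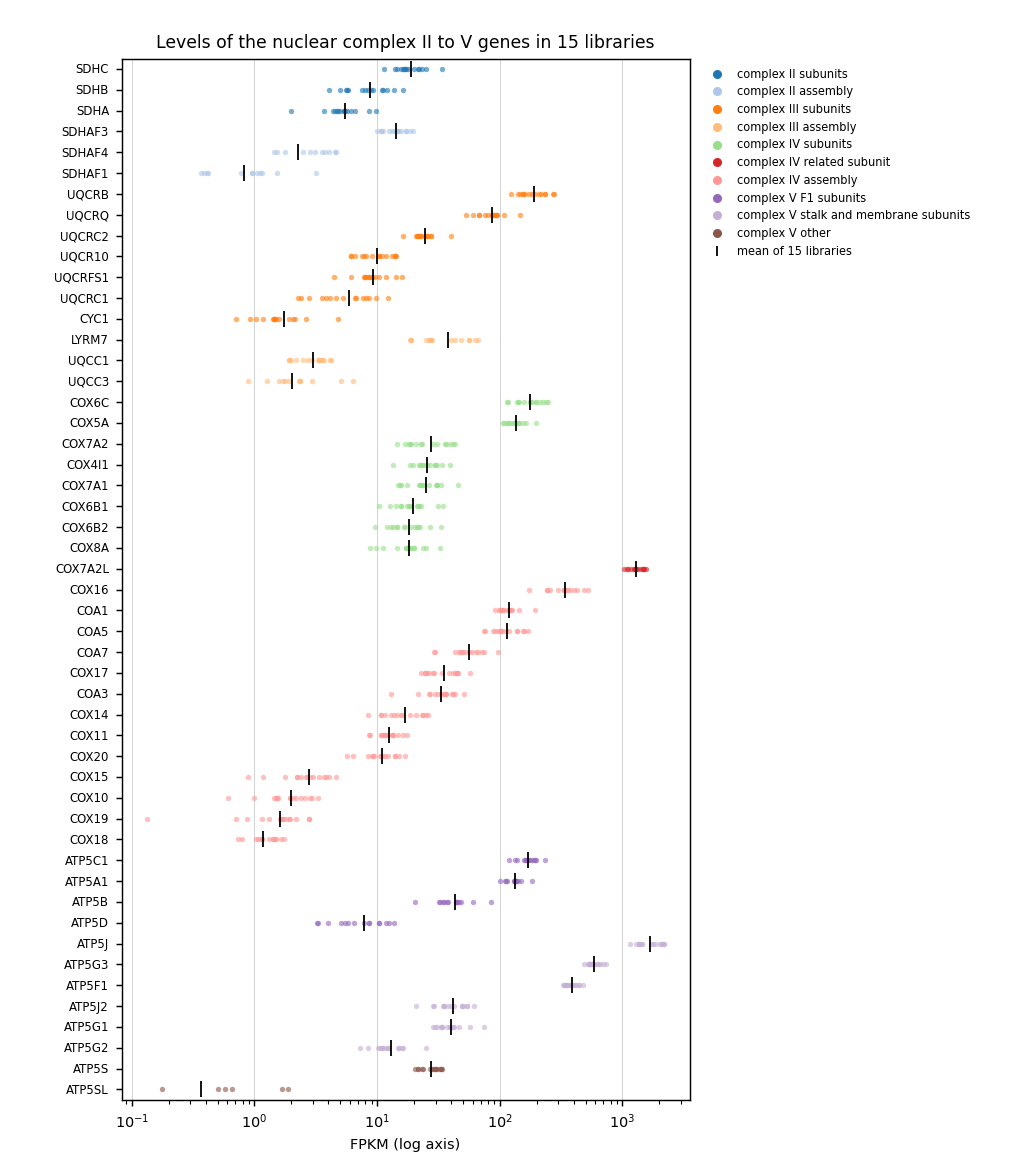
Level of each respiratory gene in FPKM on a log axis, with 1 point for each of 15 libraries, a bar at their mean and colours for the role. ATP5J and COX7A2L lead at 1690 and 1300 FPKM on average, whereas CYC1, a core subunit, lies at 1.75; libraries at 0, and COX4I2 and COX6A2, which had no counts, cannot be drawn on a log axis.

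Subunits of 1 complex, which sit in the assembled enzyme in fixed numbers, had very unequal transcript levels. In complex II, SDHC, a membrane anchor, averaged 19.0 FPKM, SDHB, the iron-sulfur subunit, 8.82 and SDHA, the flavoprotein that oxidises succinate, 5.46. In complex III, UQCRB, a subunit at the ubiquinone site, stood at 192 FPKM and the small subunit gene UQCRQ at 86.4. The catalytic Rieske protein gene UQCRFS1 averaged 9.34 FPKM and that of cytochrome c1, CYC1, 1.75. The ratio of UQCRB to CYC1 was 110 over the means and 40.7 to 299.6 over single libraries. Among the 10 complex IV subunit genes that the rule found, COX6C led at 177 FPKM and COX5A followed at 135. In complex V, ATP5C1 and ATP5A1, for the gamma and alpha subunits of the catalytic F1 head, averaged 170 and 132 FPKM, ATP5B, for the beta subunit, 43.1 and ATP5D, for the delta subunit, 7.79. ATP5F1, for subunit b of the peripheral stalk, averaged 385 FPKM. The ratio of ATP5J to ATP5D was 217 over the means.

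The genes of subunit c were unequal. ATP5G3 exceeded ATP5G1 by 14.5 times and ATP5G2 by 45.5 times in mean FPKM, and in no library by less than 9.97 times. These genes encode the same mature subunit c and differ in their import sequences. COX7A2L, the related supercomplex gene, exceeded COX7A2 by 47.7 times and COX7A1 by 52.2 times. COX7A2, the common form, and COX7A1, the form of heart and skeletal muscle, were close, at 27.2 and 24.9 FPKM. COX4I1 averaged 25.4 FPKM, and COX4I2, the lung form, had 0 of 68098630 counts, which allows up to 0.0441 CPM. COX6A2, the muscle form, had 0 counts as well. In the COX6B pair, COX6B1 averaged 19.7 FPKM and COX6B2, which in humans is the testis form, 18.3. Their ratio ran from 0.460 to 1.64 over the libraries, so neither row was the higher throughout. The COX6B1 row is uncertain, as described below.

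Assembly factors were as unequal. COX16, which helps to build the copper site of COX2, averaged 342 FPKM, COA1, which acts early on COX1, 118 and COA5 115. COX17, the copper chaperone, stood at 35.4 FPKM, while COX10 and COX15, which make haem A, stood at 1.99 and 2.76. LYRM7, a chaperone that holds the Rieske protein before it is inserted into complex III, averaged 37.5 FPKM, above UQCC1 at 3.01 and UQCC3 at 2.04, which help to make cytochrome b. SDHAF3, which helps to mature the iron-sulfur subunit of complex II, averaged 14.3 FPKM and SDHAF4, which acts on SDHA, 2.25. Several genes are uncertain. COX6B1 and COX8A lie on other chromosomes in RefSeq than in the table, where they span 479 and 448 bases on UMD3.1. These spans equal the lengths of their gene models. Values given for COX6B1 and COX8A are those of these rows and may not be those of the subunit genes. COX6B1 also overlaps DERA, which had 1912 counts against its own 703. COX4I1, at 1917 counts, overlaps EMC8, at 2696, and strand use is not stated. ATP5S and ATP5SL carry the names DMAC2L and DMAC2 in RefSeq, after the membrane arm of complex I, and the ATP5S symbol is used here as in the table.

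Of the 52 genes, 44 passed the filter on low counts and entered the tests among 8441 genes. The 8 that did not were SDHAF4, UQCC3, CYC1, COX18, SDHAF1 and ATP5SL, with 26 to 160 counts in all libraries together, and COX4I2 and COX6A2 at 0. Values per library below are TMM-scaled CPM, in which library totals are adjusted by the trimmed mean of M-values, and they compare 1 gene between libraries. Differences are log2 fold changes from edgeR's quasi-likelihood fit, with p-values adjusted by Benjamini-Hochberg over the 8441 genes and called below 0.05. In RNA of whole samples, fewer cells of a type and less RNA per cell cannot be told apart.

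The coolant comparison set the 6 helium libraries against the 6 nitrogen libraries, to ask whether the lower temperature of liquid helium left another transcript profile. LYRM7 was the 1 respiratory gene called. It was lower in helium oocytes, at 0.452 of its nitrogen level and close to its level in fresh oocytes. UQCRB, ATP5J, ATP5J2 and COX16 had log2 fold changes of -0.75 to -0.64 and did not pass the test. The F1 subunits of ATP synthase found by the rule and the complex II subunits lay slightly on the other side.

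LYRM7 stood at 16.6, 9.98 and 8 TMM-scaled CPM in helium 5.6 M, at 7.85, 10.4 and 11.0 in helium 6.6 M, at 22.9, 25.1 and 28.4 in nitrogen 5.6 M, at 16.8, 21.1 and 26.8 in nitrogen 6.6 M, and at 12.02, 9.05 and 9.27 in fresh oocytes. All 6 helium libraries lay below all 6 nitrogen ones, although the highest helium library and the lowest nitrogen library were nearly equal, and the helium and fresh ranges overlapped. The means were 10.7 ± 3.20 in helium and 23.5 ± 4.22 in nitrogen (SD, n = 6 each), a log2 fold change of -1.14 (SE 0.20, edgeR Benjamini-Hochberg adjusted p = 0.00956). These values rest on 18 to 192 counts per library. LYRM7 (ENSBTAG00000010961) spans 24487322 to 24508916 on chromosome 7 of UMD3.1.

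LYRM7 was thus 1 of 44 tested respiratory genes called, while 0.663% of all 8441 tested genes were called in this comparison, 0.592% lower and 0.0711% higher in helium. Its log2 fold change stayed between -1.33 and -1.04 and was called in each of 15 fits that left out 1 library. With same-number libraries taken as a block, a pairing that no label states, it was -0.96 and did not pass (edgeR adjusted p = 0.273). Numbers 4 and 5 occur in helium 5.6 M alone, so with the block that group rests on its library 3. That library had the highest LYRM7 of the 6 helium libraries, at 16.6 TMM-scaled CPM. A fit with a term for depth gave -1.53 and did not pass (edgeR adjusted p = 0.081). In it, nitrogen 6.6 M library 3 alone carries the contrast between coolants at high depth. In that deep nitrogen library LYRM7 stood at 26.8 TMM-scaled CPM, against 7.85 to 16.6 in the 6 helium libraries of like depth. Within the shallower libraries, the 5 nitrogen ones held 16.8 to 28.4 and the 3 fresh ones 9.05 to 12.02.

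**Figure D2:**
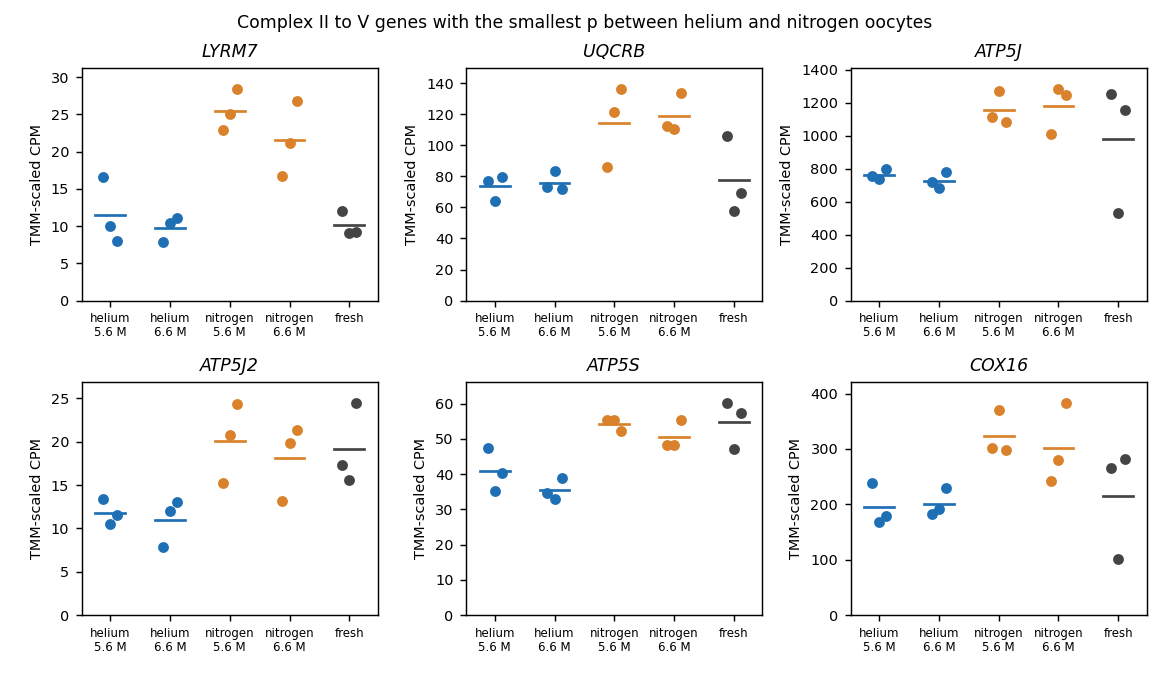
TMM-scaled CPM in each library (points) and group mean (bars) for the 6 respiratory genes of smallest p between helium and nitrogen oocytes, each on its own linear axis from 0. LYRM7 helium libraries lie at 7.85 to 16.6 and nitrogen libraries at 16.8 to 28.4, and fresh library 2 stands apart from the other fresh libraries in ATP5J and COX16.

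UQCRB, the complex III subunit at the ubiquinone site, stood at 77.3, 64.4 and 79.9 TMM-scaled CPM in helium 5.6 M, at 73.2, 83.2 and 71.7 in helium 6.6 M, at 86.0, 121 and 136 in nitrogen 5.6 M, at 112, 110 and 134 in nitrogen 6.6 M, and at 106, 57.8 and 69.5 in fresh oocytes. The helium libraries again lay below all nitrogen ones, and the fresh ones spread across both. Its log2 fold change of helium over nitrogen was -0.64 (SE 0.15, edgeR adjusted p = 0.0600), just short of the threshold. UQCRB spans 70329414 to 70334124 on chromosome 14.

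ATP5J, the most abundant of the respiratory transcripts, stood at 755, 735 and 795 TMM-scaled CPM in helium 5.6 M, at 718, 682 and 781 in helium 6.6 M, at 1113, 1270 and 1080 in nitrogen 5.6 M, at 1008, 1284 and 1244 in nitrogen 6.6 M, and at 1253, 532 and 1154 in fresh oocytes. Helium libraries lay within a narrow band below all nitrogen ones, and fresh library 2 lay below every other library. The log2 fold change of helium over nitrogen was -0.65 (SE 0.17, edgeR adjusted p = 0.0731). ATP5J2, which encodes subunit f of the membrane part, averaged 11.4 ± 2.02 in helium and 19.1 ± 4.15 in nitrogen (SD, n = 6 each). Its log2 fold change was -0.75 (SE 0.20, edgeR adjusted p = 0.0731), and 5 of 6 helium libraries lay below all nitrogen ones. In ATP5S all 6 did, with means of 38.2 ± 5.26 in helium and 52.5 ± 3.47 in nitrogen and a log2 fold change of -0.46 (SE 0.13, edgeR adjusted p = 0.0921).

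Among the assembly factors, COX16 averaged 198 ± 29.1 TMM-scaled CPM in helium and 312 ± 54.1 in nitrogen (SD, n = 6 each), with all helium libraries below all nitrogen ones and a log2 fold change of -0.66 (SE 0.20, edgeR adjusted p = 0.119). The copper chaperone gene COX17 averaged 10.5 ± 2.13 in helium and 16.2 ± 4.4 in nitrogen. Another 5 genes had unadjusted p below 0.05 on the lower side: COX7A1, COX7A2, COX20, COA5 and SDHAF3, with log2 fold changes of -0.72 to -0.42. On the higher side were UQCRC1, a core subunit of complex III, at 0.82 (SE 0.26, edgeR adjusted p = 0.138; 1.4 with a term for depth), and COA7, a haem-binding assembly factor of complex IV, at 0.43 (SE 0.17, edgeR adjusted p = 0.238).

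UQCRC1 stood at 11.96, 10.1 and 8.49 TMM-scaled CPM in helium 5.6 M, at 15.4, 17.2 and 10.2 in helium 6.6 M, at 5.93, 4.73 and 7.55 in nitrogen 5.6 M, at 12.2, 6.91 and 5.72 in nitrogen 6.6 M, and at 4.01, 11.1 and 4.21 in fresh oocytes. The helium and nitrogen ranges overlapped through nitrogen 6.6 M library 1. UQCRB and UQCRC1, subunits of 1 complex, lay on opposite sides, and neither was called.

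In all, 12 of the 44 tested genes were lower in helium at unadjusted p below 0.05 and 2 higher, against 8.57% and 7.43% of all tested genes and 16% in either direction. Beside LYRM7, none of these passed adjustment. The median log2 fold change was -0.01 for the 44 and 0.03 for all tested genes, and 22 of the 44 were above 0, against 53.4% of all tested genes, so the genes spread to both sides. In 5 of the 44, namely ATP5S, LYRM7, ATP5J, COX16 and UQCRB, all helium libraries lay below all nitrogen ones, which was so in 2.63% of all tested genes. None of the 44 had the opposite arrangement, found in 0.735% of all. By role, the F1 subunits found by the rule had 4 of 4 values above 0 (median 0.17) and the complex II subunits 3 of 3 (median 0.31). None of these was past an unadjusted p of 0.05. A row without a symbol described as the epsilon subunit of ATP synthase, outside the rule, lay at -0.75, and SDHD was not among the 52. The stalk and membrane subunits of ATP synthase had 2 of 6 above 0 (median -0.17), and the complex IV assembly factors 5 of 12 (median -0.04).

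**Figure D3:**
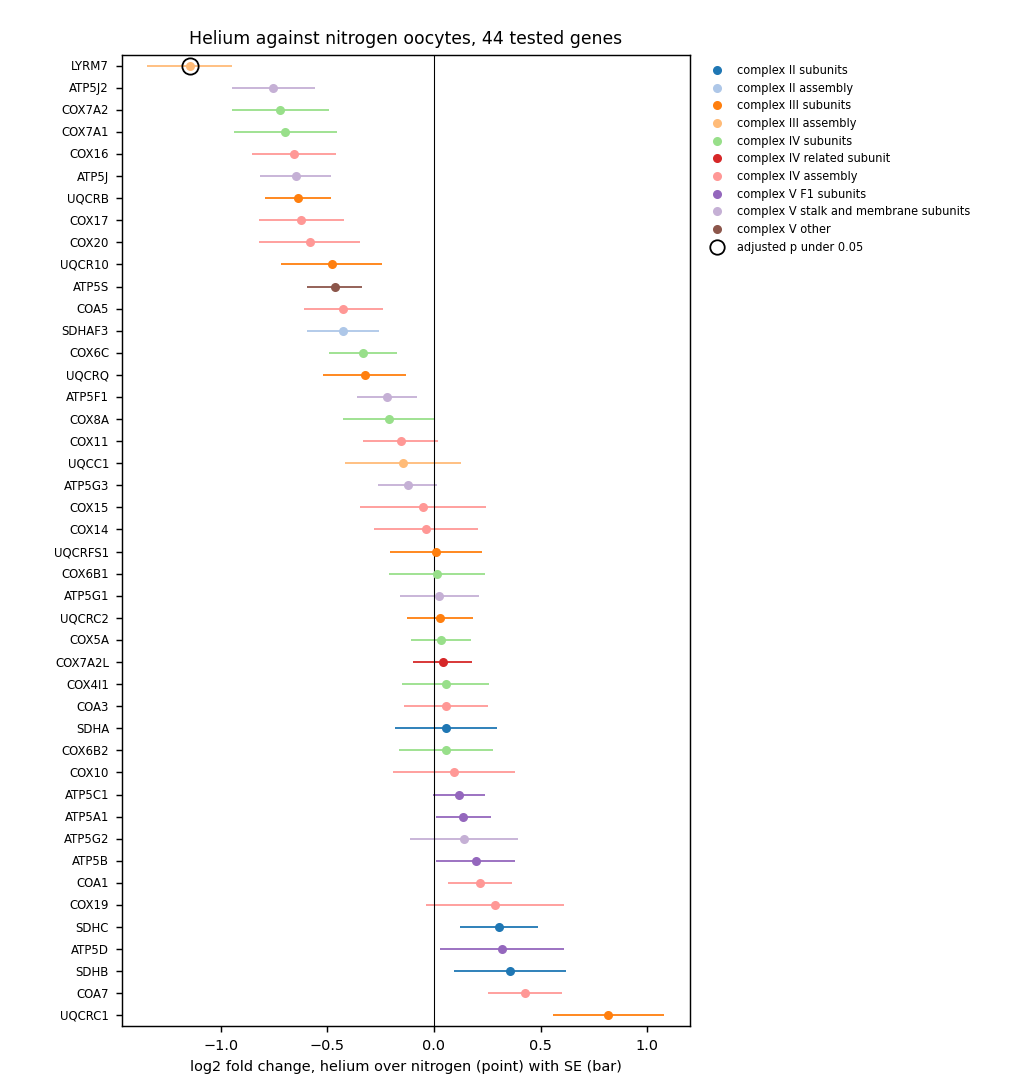
Log2 fold change of helium over nitrogen oocytes (points) with its standard error (bars) for the 44 tested respiratory genes, ordered by value and coloured by role. LYRM7, ringed, is the gene with an adjusted p under 0.05, at -1.14, and UQCRC1 lies at the other end at 0.82.

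Marker levels differed with the coolant too, without passing the test. The summed oocyte markers were at 7194 to 8561 CPM in the helium libraries and at 5287 to 7081 CPM in the nitrogen ones, without overlap, and 9 of 12 had log2 fold changes above 0, with NLRP5, BMP15, GDF9 and H1FOO higher at unadjusted p below 0.05. Of 8 tested cumulus and granulosa markers, TIMP1, SERPINE2 and TNFAIP6 were higher in helium at that p, and the summed level of all 18 was 364 to 652 CPM in helium and 388 to 423 CPM in nitrogen. No marker was called in this comparison. In helium 6.6 M against fresh oocytes, 1 of 8 tested cumulus and granulosa markers was called, as higher, against 0.367% of all tested genes. There TIMP1, SERPINE2 and TNFAIP6 were higher and HAS2 and PTGS2 lower at unadjusted p below 0.05. The part of these shifts in the values of the respiratory genes was not tested.

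Nitrogen 6.6 M library 3, the deep one, is itself in the contrast, so its values are a description. It lay beyond all helium libraries on the nitrogen side in 12 of the 14 respiratory genes at unadjusted p below 0.05. COX7A2 stood at 7.14 to 14.7 TMM-scaled CPM in the helium libraries, 9.49 in the deep nitrogen library and 11.4 to 21.5 in the 5 shallower nitrogen ones. UQCRB stood at 64.4 to 83.2 in the helium libraries, 134 in the deep nitrogen library and 86.0 to 136 in the 5 shallower nitrogen ones. Without fresh library 2, 5 respiratory genes were called, namely LYRM7, ATP5J2, ATP5J, COX16 and UQCRB. Fresh libraries enter this contrast through the shared estimate of the spread, the filter on low counts and the scaling. Without fresh library 1, or without nitrogen 5.6 M library 1, LYRM7 and UQCRB were called.

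The genes lower in helium at unadjusted p below 0.05 had mostly short gene models. These 12 had a median model of 527 bases, implied by the counts and FPKM values, and the other 32 tested respiratory genes 1024 bases. Over all genes, the 723 tested genes lower in helium at that p had a median of 1626 bases and all tested genes 2041. LYRM7, at 414 bases, COX7A1, COX17 and ATP5J2, at 383, were among the shortest, whereas ATP5S, at 1692, was longer than most. Short models did not all go with a lower value: COX14, at 464 bases, lay at -0.04, COX6B1, at 479, at 0.02 and ATP5G1, at 551, at 0.03. Across the 44 genes the log2 fold change and model length had a Spearman rho of 0.58. Across all 8441 tested genes rho was 0.06, and across the 5918 of them within the same range of lengths 0.07. These are descriptions across genes measured in the same libraries, so no p is given, and the part of length in the difference was not tested.

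**Figure D4:**
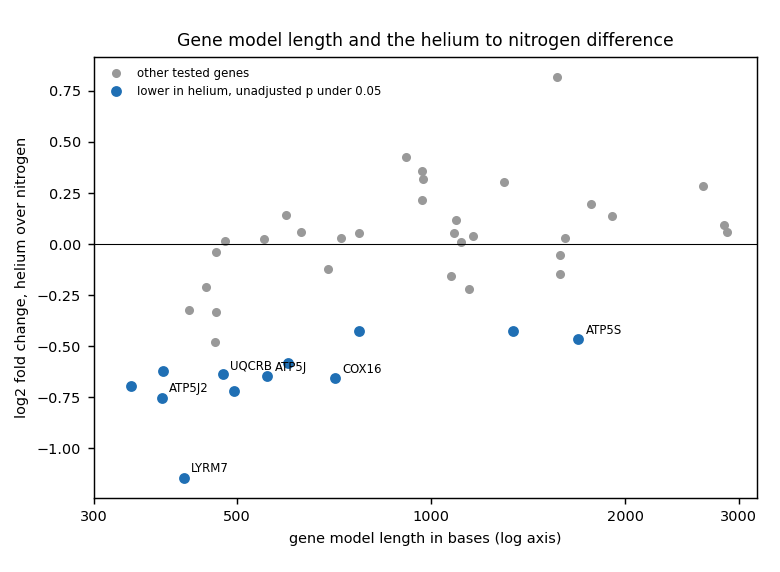
Gene model length in bases (log axis) against the log2 fold change of helium over nitrogen for the 44 tested respiratory genes, with the 12 genes lower in helium at unadjusted p below 0.05 in blue. The blue points lie at 343 to 773 bases, except ATP5S at 1692 and SDHAF3 at 1341.

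The 12 vitrified libraries were then set against the 3 fresh ones. None of the 44 tested respiratory genes was called, while 0.509% of all tested genes were, 23 higher and 20 lower. LYRM7, ATP5C1 and COA3 had unadjusted p below 0.05, all on the higher side, and none on the lower. Among all tested genes 5.88% were higher and 7.71% lower at that p, 13.6% together. DESeq2 called none of the 44 either. Of the 44, 29 had log2 fold changes above 0 (65.9%), against 46.5% of all tested genes, and the medians were 0.11 and -0.03. In none of the 44 did all vitrified libraries lie beyond all fresh ones, which was so, higher, in 1.32% of all tested genes and, lower, in 0.711%.

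ATP5C1, the gamma subunit of the rotating F1 shaft, averaged 194 ± 21.2 TMM-scaled CPM in vitrified oocytes (SD, n = 12) and 152 ± 17.4 in fresh ones (SD, n = 3), with 11 of 12 vitrified libraries above all fresh ones. Its log2 fold change was 0.35 (SE 0.14, edgeR adjusted p = 0.277). LYRM7 averaged 17.1 ± 7.60 in vitrified and 10.1 ± 1.66 in fresh oocytes, at 0.67 (SE 0.26, edgeR adjusted p = 0.267), with 7 of 12 vitrified libraries above all fresh ones and 2 below. COA3, which stabilises newly made COX1, averaged 27.6 ± 5.35 in vitrified and 18.7 ± 7.18 in fresh oocytes, at 0.53 (SE 0.25, edgeR adjusted p = 0.356). The other genes of largest positive difference were the copper-handling COX19 at 0.68 and the complex III subunit UQCR10 at 0.59. The uncertain rows COX8A and COX6B1, named for complex IV subunits, followed at 0.54 and 0.50. Those of largest negative difference were COX7A2 at -0.46, COX4I1 at -0.46, ATP5J2 at -0.38, ATP5S at -0.29, COX6B2 at -0.28 and COX5A at -0.24. None of these had an unadjusted p below 0.05, and with a term for depth COX7A2 turned to 0.10 and COX6B1 to -0.20. Single fresh libraries decided the size of many of these values. Without fresh library 1, COX7A2 was at -0.17, ATP5S at -0.18, COX6B2 at -0.44 and COA3 at 0.31. Without fresh library 3, COX4I1 was at -0.08, ATP5J2 at -0.14, COX6B2 at -0.04 and COX19 at 0.11, and without fresh library 2 COX19 was at 2.04. The depth term moved COX4I1 to -1.02, ATP5J2 to -0.59, COX6B2 to -0.84, COX5A to -0.12, COA3 to 0.34, COX8A to 0.12 and LYRM7 to 0.37.

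By role, the 6 tested complex III subunits were all above 0 (median 0.22), as were the 4 F1 subunits of ATP synthase (median 0.29). The complex IV assembly factors had 9 of 12 above 0 (median 0.23), whereas the complex IV subunits had 3 of 8 (median -0.16). COX5A, a subunit on the matrix side of complex IV, lay at 94.6 ± 15.1 in vitrified (SD, n = 12) and 112 ± 7.40 in fresh oocytes (SD, n = 3), with 10 of 12 vitrified libraries below all fresh ones. COX4I1, through which ATP regulates complex IV, lay at 25.9 ± 5.48 in vitrified and 35.4 ± 13.4 in fresh oocytes, with fresh library 3 at 50.6 and the highest of 15. These are counts of directions among genes measured in the same libraries, and none is a test.

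The 4 vitrified groups were also compared with fresh oocytes 1 by 1. All 4 comparisons share the same 3 fresh libraries, so values of a gene in them are not independent and are given side by side. No respiratory gene was called by edgeR in any of the 4, and the calls DESeq2 made are given below. Of all tested genes, 0.474% were called in helium 5.6 M, 0.628% in helium 6.6 M, 0.0118% in nitrogen 5.6 M and 0.0474% in nitrogen 6.6 M. At unadjusted p below 0.05, 1 respiratory gene was higher and 2 lower in helium 5.6 M, 6 higher and 3 lower in helium 6.6 M, 3 higher and 0 lower in nitrogen 5.6 M, and 6 higher and 0 lower in nitrogen 6.6 M. Among all tested genes the shares higher and lower at that p were 5.63% and 8.51% in helium 5.6 M, 7.11% and 8.34% in helium 6.6 M, 3.78% and 2.96% in nitrogen 5.6 M, and 4.67% and 3.57% in nitrogen 6.6 M. Both directions together made 14.1%, 15.4%, 6.74% and 8.23% in the same order. Log2 fold changes were above 0 in 23 of the 44 in helium 5.6 M (50.1% of all tested genes), 29 in helium 6.6 M (47.7%), 27 in nitrogen 5.6 M (44.6%) and 34 in nitrogen 6.6 M (46.7%).

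**Figure D5:**
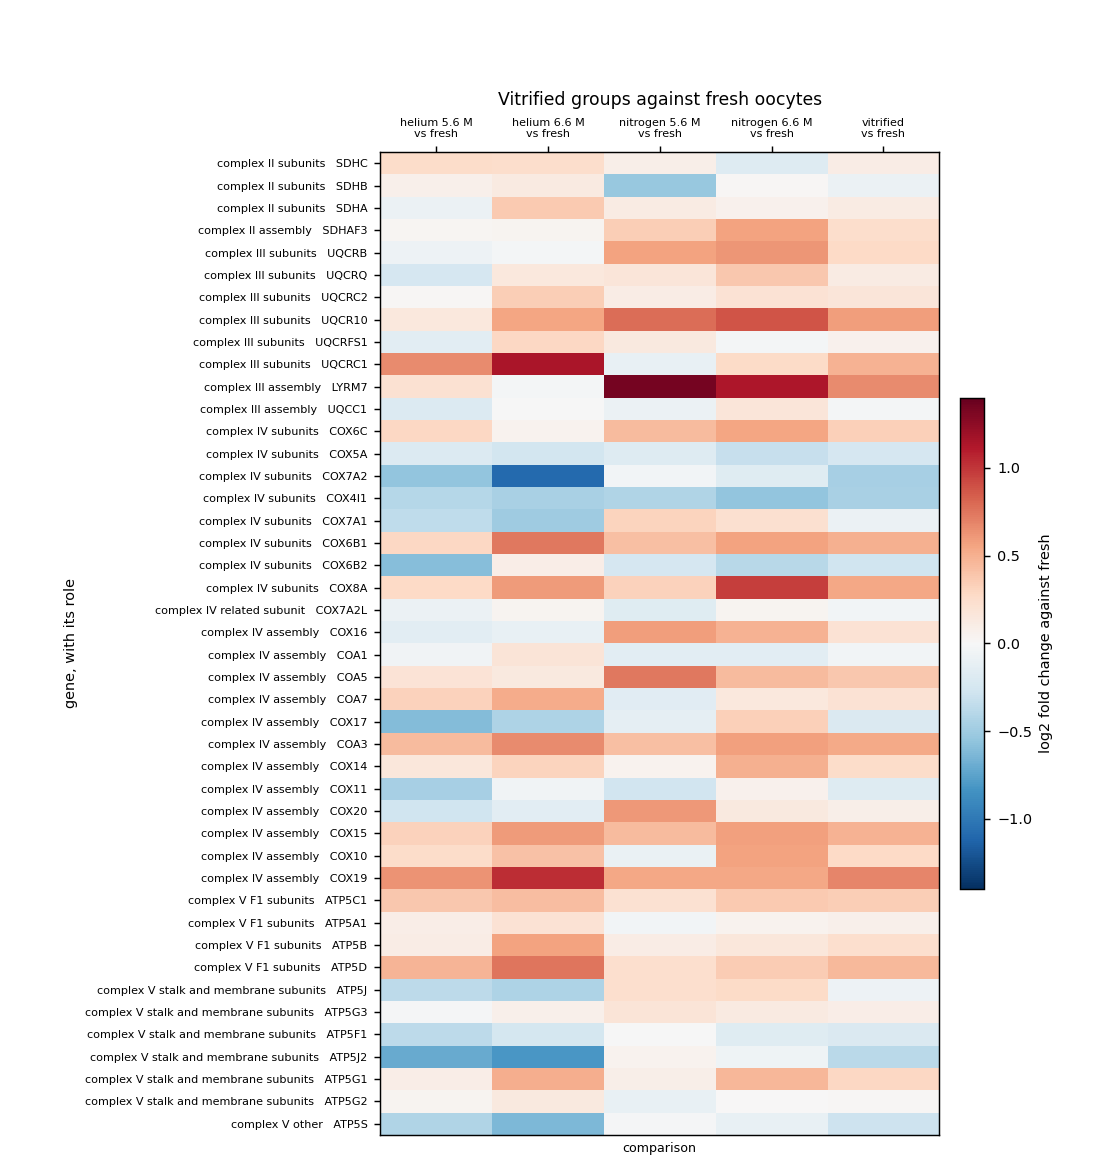
Log2 fold change of each vitrified group, and of all vitrified oocytes, over fresh oocytes (columns) for the 44 tested respiratory genes (rows, grouped by role), with red for higher and blue for lower than fresh. LYRM7 is at 1.34 and 1.13 in both nitrogen groups and at 0.22 and -0.03 in the helium groups; the columns share the 3 fresh libraries.

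LYRM7 had log2 fold changes over fresh of 0.22 in helium 5.6 M, -0.03 in helium 6.6 M, 1.34 in nitrogen 5.6 M and 1.13 in nitrogen 6.6 M. In both nitrogen groups all 3 libraries lay above all fresh ones, and neither value passed (edgeR adjusted p = 0.225 and 0.232). UQCRB had -0.07 and -0.02 in helium at 5.6 and 6.6 M, and 0.56 and 0.62 in nitrogen at 5.6 and 6.6 M. COX16 had -0.15 and -0.10 in helium, and 0.58 and 0.49 in nitrogen, at these concentrations. For ATP5J the values were -0.36 and -0.43 in helium, and 0.24 and 0.27 in nitrogen. These 3 genes lay above 0 in both nitrogen groups and below 0 in both helium groups. ATP5J2 had -0.70 and -0.81 in helium, and 0.05 and -0.06 in nitrogen, and ATP5S had -0.42 and -0.63 in helium, and -0.01 and -0.11 in nitrogen. In LYRM7 and UQCRB the fresh level was thus nearer to that of the helium groups. In ATP5J2 and ATP5S it was nearer to that of the nitrogen groups. The fresh levels of COX16 and ATP5J were lowered by fresh library 2, at 101 and 532 TMM-scaled CPM. Fresh libraries 1 and 3 stood at 265 and 281 for COX16 and at 1253 and 1154 for ATP5J, all above every helium library.

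In helium 5.6 M the smallest p on each side were those of ATP5C1 at 0.38 and UQCRC1 at 0.66, and of ATP5J2 at -0.70 and ATP5S at -0.42 (edgeR adjusted p = 0.259 to 0.458). ATP5C1 and SDHC lay above, and COX17, ATP5J2 and COX11 below, all fresh libraries in all 3 libraries of the group. That was so in 9.36% and 8.79% of all tested genes. Without fresh library 2, ATP5J and ATP5F1, both among the 8 respiratory genes in which that library was the lowest of 15, were called as lower, at -0.67 and -0.60 (edgeR adjusted p = 0.0309 and 0.0492). UQCRC1 was at 1.3 without that library and at 0.41 without fresh library 3, and ATP5J2 at -0.46 without fresh library 3. With a term for depth ATP5C1 was at 0.13, UQCRC1 at 1.37 and ATP5J2 at -1.06.

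In helium 6.6 M, COX7A2 stood at 7.14, 7.57 and 8.78 TMM-scaled CPM, against 22.7, 16.1 and 12.2 in fresh oocytes, with no overlap. Its log2 fold change was -1.09 (SE 0.33, edgeR adjusted p = 0.122). ATP5S lay at -0.63 (SE 0.19, edgeR adjusted p = 0.115), UQCRC1 at 1.14 (SE 0.38, edgeR adjusted p = 0.157) and ATP5C1 at 0.43 (SE 0.17, edgeR adjusted p = 0.229). COX6B1, COA3, ATP5C1 and COX8A lay above all fresh libraries and ATP5S, COX7A2, ATP5J2 and COX5A below, as did 8.06% and 8.25% of all tested genes. Without fresh library 2 the calls were ATP5S at -0.75, UQCRC1 at 1.76, ATP5J at -0.75 and COX19 at 2.38 (edgeR adjusted p = 0.0150 to 0.0358). Without that library and helium 6.6 M library 2, ATP5J alone was called. DESeq2, run as an alternative, called ATP5S and COX7A2. With a term for depth COX7A2 was at -0.13, ATP5C1 at 0.18 and UQCRC1 at 1.85, and none passed (edgeR adjusted p = 0.399 to 0.953). With same-number libraries paired as a block, no respiratory gene was called, and 3 of all tested genes were, against 53 without the block.

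In nitrogen 5.6 M, COA5, an assembly factor of complex IV, lay at 0.74 over fresh (SE 0.27, edgeR adjusted p = 0.650), COX4I1 at -0.42 and SDHB at -0.53. Without fresh library 3, COX4I1 was at -0.04, COA5 at 1.14 and SDHB at -0.85, without fresh library 2 SDHB was at -0.10, and without nitrogen 5.6 M library 1 COX4I1 was at -0.19. COX6B1, UQCR10, COA5, LYRM7, SDHAF3, COX16, COX6C and COX20 lay above all fresh libraries and no respiratory gene below, against 5.24% and 4.03% of all tested genes. LYRM7 was called there by DESeq2, at 1.35 (adjusted p = 0.0223), and by edgeR without the filter on low counts (adjusted p = 0.0488). In nitrogen 6.6 M, COX8A, a small membrane subunit of complex IV, lay at 0.97 (SE 0.34, edgeR adjusted p = 0.397), COX4I1 at -0.55 and COX5A at -0.33. COX4I1 was at -0.17 without fresh library 3, at -0.30 without nitrogen 6.6 M library 2 and at -0.97 without nitrogen 6.6 M library 3. UQCR10, ATP5C1, LYRM7, SDHAF3, ATP5G1, COX8A and UQCRB lay above all fresh libraries and COX5A below, against 5.27% and 4.04% of all tested genes.

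The higher concentration of cryoprotectant was set against the lower over both coolants. None of the 44 genes was called, and 0% of all tested genes were. By edgeR without adjustment, 189 of the 8441 genes had p below 0.05, and DESeq2 called none of the 44 either. COX8A at 0.48, ATP5G1, a minor gene of subunit c, at 0.39, and COX11, which delivers copper to COX1, at 0.37 had unadjusted p below 0.05, all higher at 6.6 M, against 1.28% of all tested genes on that side. COX8A averaged 10.1 ± 2.65 TMM-scaled CPM at 6.6 M and 7.27 ± 1.87 at 5.6 M (SD, n = 6 each), with overlapping ranges. COX8A was at 0.32 without nitrogen 6.6 M library 3 and ATP5G1 at 0.24 without helium 6.6 M library 2. Of the 44, 30 lay above 0 (68.2%), against 51.2% of all tested genes, with medians of 0.15 and 0.01. The 6 complex III subunits and the 4 F1 subunits were above 0, and COX7A2 at -0.34 and ATP5S at -0.15 had the smallest p on the other side. COX7A2 was at -0.18 without nitrogen 6.6 M library 3 and ATP5S at -0.09 without helium 5.6 M library 3.

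The difference between helium and nitrogen in the effect of concentration was tested as an interaction. None of the 44 genes was called (0% of all tested genes), and none had an unadjusted p below 0.05, which 2.10% of all tested genes had. DESeq2 called none of the 44. COX6B2 lay at 0.83 (SE 0.44), UQCRFS1 at 0.60 (SE 0.43), SDHB at -0.48 (SE 0.52) and COX6C at -0.35 (SE 0.32), each with an edgeR adjusted p = 1.00. Without nitrogen 6.6 M library 3, COX6B2 was at 1.27, SDHB at -0.17 and COX6C at -0.23. SDHB was at -0.29 without helium 5.6 M library 4, UQCRFS1 at 0.35 without helium 6.6 M library 2, and COX6C at -0.13 without helium 5.6 M library 5 and -0.22 without nitrogen 6.6 M library 1. For LYRM7 it was -0.04 (SE 0.39), an error larger than the value itself.

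Complexes III to V also need subunits encoded in the mitochondrion, and these 6 partner genes for cytochrome b, COX1 to COX3, ATP6 and ATP8 were far more abundant. Their summed level was 12767 to 47203 CPM per library, highest in fresh library 1, against 4568 to 5784 CPM for the 52 nuclear genes. In vitrified against fresh oocytes none was called, 6 of 6 log2 fold changes were below 0, with a median of -0.66, and 4 had unadjusted p below 0.05. The lowest was ATP8 at -0.91 (SE 0.28, edgeR adjusted p = 0.156). In helium against nitrogen oocytes 6 of 6 were below 0 as well, with a median of -0.51, 0 called and 2 at unadjusted p below 0.05, ATP8 and the COX2 gene. The nuclear genes had medians of 0.11 and -0.01 in the same comparisons. Against fresh, the median of the 6 was -0.25 without fresh library 1, with none at unadjusted p below 0.05, and -1.09 without fresh library 2, with 3 called. With a term for depth it was -0.15 against fresh, and turned to 0.29 for helium against nitrogen, with 1 of 6 below 0. That term rests on nitrogen 6.6 M library 3, which had the lowest sum of the 15 libraries, at 12767 CPM. Libraries 1 and 2 of its group stood at 24547 and 25461 CPM. Without fresh library 2, 2 of the 6 were called in helium against nitrogen, and without the filter on low counts 2 were called in each comparison.

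Of 24 other nuclear genes of complexes III to V in the table, whose symbols fall outside the rule, 20 were tested. None was called in vitrified against fresh oocytes, where HCCS, which attaches haem to cytochrome c, had an unadjusted p below 0.05 at 0.58. None was called in helium against nitrogen oocytes either, with 4 lower and 1 higher at unadjusted p below 0.05. The lower ones were CHCHD7 at -0.69 (SE 0.16, edgeR adjusted p = 0.0589), the complex IV subunit NDUFA4 at -0.61, the complex IV assembly factor CMC1 at -0.56, and C12orf73, a complex III assembly factor in humans, at -0.29. OXA1L, which inserts subunits into the inner membrane, was the higher one at 0.52. Of 10 tested regulators of nuclear respiratory genes, the transcription factor YY1 was called as lower in helium 5.6 M against fresh oocytes. It averaged 28.0 ± 0.99 TMM-scaled CPM in helium 5.6 M and 50.4 ± 5.55 in fresh oocytes (SD, n = 3 each), a log2 fold change of -0.84 (SE 0.18, edgeR adjusted p = 0.0461). That call was at the threshold: it was lost in 13 of 15 fits that left out 1 library, all but those without helium 6.6 M library 2 or fresh library 2, with adjusted p of 0.0230 to 0.229 over the 15, and with a term for depth (adjusted p = 0.372), while the log2 fold change stayed between -0.90 and -0.73. In helium against nitrogen oocytes 9 of the 10 regulators lay below 0, with a median of -0.18 and none called. YY1 lay at -0.50 (SE 0.13, edgeR adjusted p = 0.0731) and PPARGC1A, a coactivator of mitochondrial biogenesis, at -0.66 (SE 0.24, edgeR adjusted p = 0.189), while its relative PPRC1 lay at 0.73 (SE 0.33, edgeR adjusted p = 0.289). Against fresh, PPARGC1A lay at -0.81 in helium 5.6 M and at -0.76 in helium 6.6 M (edgeR adjusted p = 0.276 and 0.278).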

How the data were processed

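RNA was measured in 15 libraries of bovine oocytes, 3 per group, grouped by the treatment label. Counts per gene were deposited by the authors as whole numbers without scaling, beside FPKM values scaled by gene length and library total, per the file headers. The submitters' processing notes name HISAT2 2.0.4, StringTie 1.3.0 and UMD3.1, without roles. Every value column had a sample (0 without one). The 52 genes and all lists were chosen with earlier results of these data known. In R 4.3.3 with edgeR 4.0.16, filterByExpr kept 8441 genes, TMM scaling was used, and 1 robust quasi-likelihood fit of 5 groups without a replicate block gave 8 contrasts, adjusted by Benjamini-Hochberg at 0.05. RefSeq served for names alone and matched all 52 genes. Genes are named if called, if among the 6 largest differences each way for vitrified against fresh, if among the 2 smallest p each way in other comparisons, or by level within a role or isoform family. COX16, COX17, ATP5J2, ATP5F1 and others listed by sign, overlap or unadjusted p, were named after their values were seen. Helium 6.6 M and fresh libraries of the same number had correlated deviations (r = 0.162, 0.320 and 0.243), and the blocked fit is given beside that comparison. With fresh libraries 1, 2 and 3, r was -0.140, -0.212 and 0.468 in nitrogen 6.6 M and 0.121, -0.352 and -0.174 in nitrogen 5.6 M. Helium 5.6 M and fresh libraries 3 had r = 0.296. No label states a pairing and libraries of different numbers were not compared, so whether the numbers pair libraries was not tested. The chi-square statistic between libraries of a group was at least 5.52 per degree of freedom, far above sampling noise. All were counted as separate replicates, although this statistic cannot tell different oocytes from repeat preparations of the same RNA. On simulated counts for 8441 genes the fit recovered 59% of 2-fold and 91% of 4-fold changes in vitrified against fresh oocytes, and 79% and 95% in helium against nitrogen. These counts were drawn from the fit's own estimates of spread, without deviating libraries or an effect of depth. The shares cover genes of all levels, so they may be too high for the real data and for genes of few counts. Alternatives were other size factors, no filter, DESeq2 1.42.0, mitochondrial genes left out, a replicate block, a depth term at 5000000 counts, and leaving out each library. The floor for a gene at 0 is 3 counts over all libraries and covers counting error only.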

Additional observations from a re-analysis of the deposited data

Results flagged for a closer look

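LYRM7, the chaperone of the Rieske protein, differed between the coolants in its difference from fresh oocytes. The log2 fold changes over fresh were 0.22 and -0.03 in the helium groups and 1.34 and 1.13 in the nitrogen groups. The difference of helium and nitrogen effects was tested directly and was -1.14 (edgeR Benjamini-Hochberg adjusted p = 0.00956), with 6 of 6 helium libraries below every nitrogen library. The fresh libraries cancel in this difference. With same-number libraries taken as a block it was -0.96 and did not pass (edgeR adjusted p = 0.273). With the block helium 5.6 M rests on its library 3, because numbers 4 and 5 occur in no other group. Depth moved with coolant. A term for depth gave -1.53 (adjusted p = 0.081), and the 1 deep nitrogen library, at 26.8 TMM-scaled CPM, lay above all 6 helium libraries of like depth, at 7.85 to 16.6.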

How the results depend on the processing

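Of 919 alternative values for 42 log2 fold changes of named genes, 872 kept their direction and side of the threshold, 13 newly passed, 31 no longer passed and 3 turned sign. Those 3 were COX7A2 (0.10) and COX6B1 (-0.20) in vitrified against fresh oocytes with a depth term, and COX6C in the interaction (0.10) with a replicate block. LYRM7 in helium against nitrogen no longer passed with a replicate block (-0.96, edgeR adjusted p = 0.273) and with a depth term (-1.53, adjusted p = 0.081); the other losses were those of YY1 in helium 5.6 M against fresh and of the row ENSBTAG00000032954 in helium against nitrogen. Same-number helium and nitrogen libraries correlated at -0.38 to 0.37, with both signs, and no label states that the numbers pair them. In the block fit helium 5.6 M libraries 4 and 5 share their numbers with no other library, so that group rests on its library 3. The block changed no other count of called respiratory genes in the 7 comparisons it was run in (not helium 5.6 M against fresh, which share 1 number). For helium against nitrogen the count of 1 became 0 with the block, 0 with the depth term, 6 without a filter on low counts, 6 with DESeq2, 1 to 5 when 1 library was left out and 5 without fresh library 2 and helium 6.6 M library 2 together. Against fresh, the count of 0 became 0 to 2 for helium 5.6 M and 0 to 4 for helium 6.6 M when 1 library was left out. It became 2 and 1 for these groups without both of those libraries, 2 for helium 6.6 M with DESeq2, and 1 for nitrogen 5.6 M with DESeq2 and with no filter. Over all tested genes the number called ran over the alternatives from 0 to 344 for helium against nitrogen (56 as reported), 1 to 262 for vitrified (43), 0 to 536 for helium 5.6 M (40), 0 to 598 for helium 6.6 M (53), 1 to 36 for nitrogen 5.6 M (1) and 1 to 87 for nitrogen 6.6 M (4) against fresh. The joint leave-out of both libraries was chosen after seeing the data. The causes of these shifts were not tested. The depth term rests on 1 nitrogen library, and fresh libraries of 1601519 to 2822837 counts limit the precision for genes of few counts, such as LYRM7 at 18 to 22 counts there.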

Other observations

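The table also holds 16 rows without a symbol whose description names a subunit of complexes II to V, a list made after the table had been seen. Of the 13 tested, 11 lay below 0 in helium against nitrogen oocytes, with a median log2 fold change of -0.48, and 7 were lower at unadjusted p below 0.05. A row described as the epsilon subunit of ATP synthase, ENSBTAG00000032954, was called. It averaged 54.9 ± 17.5 TMM-scaled CPM in helium and 91.8 ± 11.3 in nitrogen (SD, n = 6 each), at -0.75 (SE 0.17, edgeR adjusted p = 0.0438). The call was lost in 11 of 15 fits that left out 1 library, all but those without helium 5.6 M library 5 or 1 of the 3 fresh libraries, with adjusted p of 0.0216 to 0.132 over the 15, and with a term for depth (-0.56, adjusted p = 0.432). Such rows can be copies of 1 gene between which the counting could divide reads, so their values are uncertain. In vitrified against fresh oocytes none of the 13 was called, 8 lay above 0 and 1 had an unadjusted p below 0.05.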
